A study of Homo sapiens with 6 samples.

Results

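The genes described here are 39 interferon-stimulated genes, well-known members of the antiviral response. They were found by their symbols among the 60480 gene identifiers of the count table. The list was drawn up with earlier results of these data known. To ask which pathways depend on IGF2BP3, an RNA-binding protein that reads m6A marks on mRNA, the study sequenced poly(A) RNA from OE-19 cells, an established line of adenocarcinoma of the esophagogastric junction. The comparison sets 3 libraries from cells with a knockdown of IGF2BP3 by shRNA (IGF2BP3 KD) against 3 libraries from control cells, all grown in the same medium with serum and without added interferon as far as the labels say. The labels call the control libraries both shControl and Puro, and the sources used here do not say which hairpin each library carries or whether the 3 libraries of a group came from separate cultures. The p-values therefore measure only the spread between these libraries, which may be technical.

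Interferons are secreted proteins that warn cells of viral infection. Type I interferons bind a receptor made of IFNAR1 and IFNAR2, the kinases JAK1 and TYK2 activate STAT proteins, STAT2 among them, and these join IRF9 in a complex that binds the interferon-stimulated response element (ISRE) in the promoters of target genes. The targets include sensors and destroyers of viral RNA, the ubiquitin-like protein ISG15 with its enzymes, and proteins that block virus entry, replication or release. Epithelial cells keep some of these genes at a basal level without interferon, while others are silent until a signal arrives.

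Total counts per library were between 53453621 and 70026203, of which mitochondrial genes made up 8.67% to 9.06%. *IGF2BP3* itself had 7416, 7363 and 6532 counts in control libraries 1, 2 and 3, and 777, 792 and 794 in IGF2BP3 KD libraries 1, 2 and 3, a log2 fold change of -3.03 (standard error, SE, 0.06). Expression is given below as CPM, the usual count scaled to library size, here with TMM factors, with the SD over 3 libraries, and a gene is called higher or lower where edgeR's quasi-likelihood test gave an adjusted p under 0.05 over all 19778 genes tested. The 8 epithelial markers summed to 18781 to 19790 CPM in control libraries and to 20420 to 20876 CPM in IGF2BP3 KD libraries, most of it *ERBB2* (13074 and 14337 CPM on average), with 3 called higher and 3 lower. The 8 leukocyte markers summed to 33.6 to 39.1 CPM in control libraries and to 49.9 to 55.2 CPM in IGF2BP3 KD libraries, nearly all of it *CD68* (35.8 and 51.9 CPM on average), while *CD3E*, *CSF1R* and *CLEC4C* had 0 counts everywhere. The 6 fibroblast markers summed to 21.2 to 24.5 CPM and 29.9 to 34.4 CPM, nearly all of it *COL1A1*, with *COL1A2* and *LUM* at 0, and the 5 endothelial markers to at most 0.581 CPM. *CD68* and *COL1A1* were called higher, while *PTPRC* had at most 8 counts and *COL3A1* at most 11 in any library. Whether any RNA of leukocytes or fibroblasts is in these libraries was not tested. In bulk RNA, more cells that express a gene and more of its RNA per cell cannot be told apart.

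The ISRE is shown first, since it is the element bound by the complex described above. RefSeq promoter windows (GRCh38.p14, 250 bases before to 50 bases after the start) were found for 33 of the 39 genes, but not for *IFIT2*, *OAS2*, *OASL*, *USP18*, *IRF7* and *TRIM22*. The core of the element, taken as GAAA, any 2 bases and GAAA again on either strand, occurred in 20 of these 33 promoters (60.6%) and in 3.65% of all 27305 promoters. The windows below show it in capitals (as TTTC, 2 bases and TTTC where it lies on the other strand) in 5 genes that rose in IGF2BP3 KD cells, then in 3 genes that were expressed and not called, and last in 2 genes that were silent or nearly so. Each is written 5′ to 3′ on the strand of its gene.
ISG15, chr1:1013374-1013403, plus strand: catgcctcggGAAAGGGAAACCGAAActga
DDX60, chr4:168318786-168318815, minus strand: gaggagaaagGAAACCGAAActcccgccgg
IFIH1, chr2:162318686-162318715, minus strand: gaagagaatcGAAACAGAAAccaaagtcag
IFIT5, chr10:89414513-89414542, plus strand: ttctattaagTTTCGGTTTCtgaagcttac
PARP14, chr3:122680800-122680829, plus strand: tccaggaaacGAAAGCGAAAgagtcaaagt
OAS3, chr12:112938321-112938350, plus strand: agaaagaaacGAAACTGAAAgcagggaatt
DTX3L, chr3:122564322-122564351, plus strand: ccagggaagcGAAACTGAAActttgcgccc
MX1, chr21:41420559-41420588, plus strand: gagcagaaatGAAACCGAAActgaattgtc
BST2, chr19:17405735-17405764, minus strand: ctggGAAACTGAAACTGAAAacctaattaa
IFI44, chr1:78649761-78649790, plus strand: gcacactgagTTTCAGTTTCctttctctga
In *ISG15* and *BST2* overlapping matches of the motif run together. The motif was in 5 of 8 called members with a promoter window, in 9 of 18 that were tested and not called, and in 6 of 7 that were too low to test. A second motif, TTCNNNGAA, the core of the interferon gamma-activated sequence, which reads the same on both strands, was in 8 of the 33 promoters (24.2%) against 7.88% of all promoters, and in 4 of the 8 called members (*DDX60*, *IFI35*, *OAS1* and *PARP14*), 2 of the 18 not called and 2 of the 7 not tested. A match to these letters is not evidence of binding in OE-19 cells.

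Most of these genes are expressed in OE-19 cells, and part of the list rose in IGF2BP3 KD cells by a small amount. Of the 39 genes, 30 passed the filter on low counts and 9 did not. Among the 30, 9 were higher and 0 were lower in IGF2BP3 KD cells, while over all genes tested 9.87% were called higher and 10.6% lower. Since the list was chosen with earlier results of these data known, these counts describe this list only. At an unadjusted p under 0.05 the members counted 11 higher and 0 lower, beside 3061 and 3024 of the 19778 genes tested. DESeq2 called 10 members higher, the same 9 and *SP110*, and 0 lower. Of the 38462 genes with any count, DESeq2 called 2074 higher and 2416 lower. The rises ran from 1.22-fold in *OAS1* to 1.83-fold in *IFIT5*. The median log2 fold change of the 30 was 0.14, against 0.01 over all genes tested. In 11 of the 30 each IGF2BP3 KD value lay above each control value, and in 1 (*PARP9*) each lay below, beside 18.0% and 17.8% of all genes tested. Of the 9 called genes, 6 kept the call in each of the 6 fits that left out 1 library, and *IFIT5*, *IFI35* and *USP18* did not. The count of higher members dropped to 6 when control library 3 or IGF2BP3 KD library 2 was left out. Over all genes tested, the count of higher genes was then 1414 and 1429, against 1953 in the main fit.

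**Figure D1:**
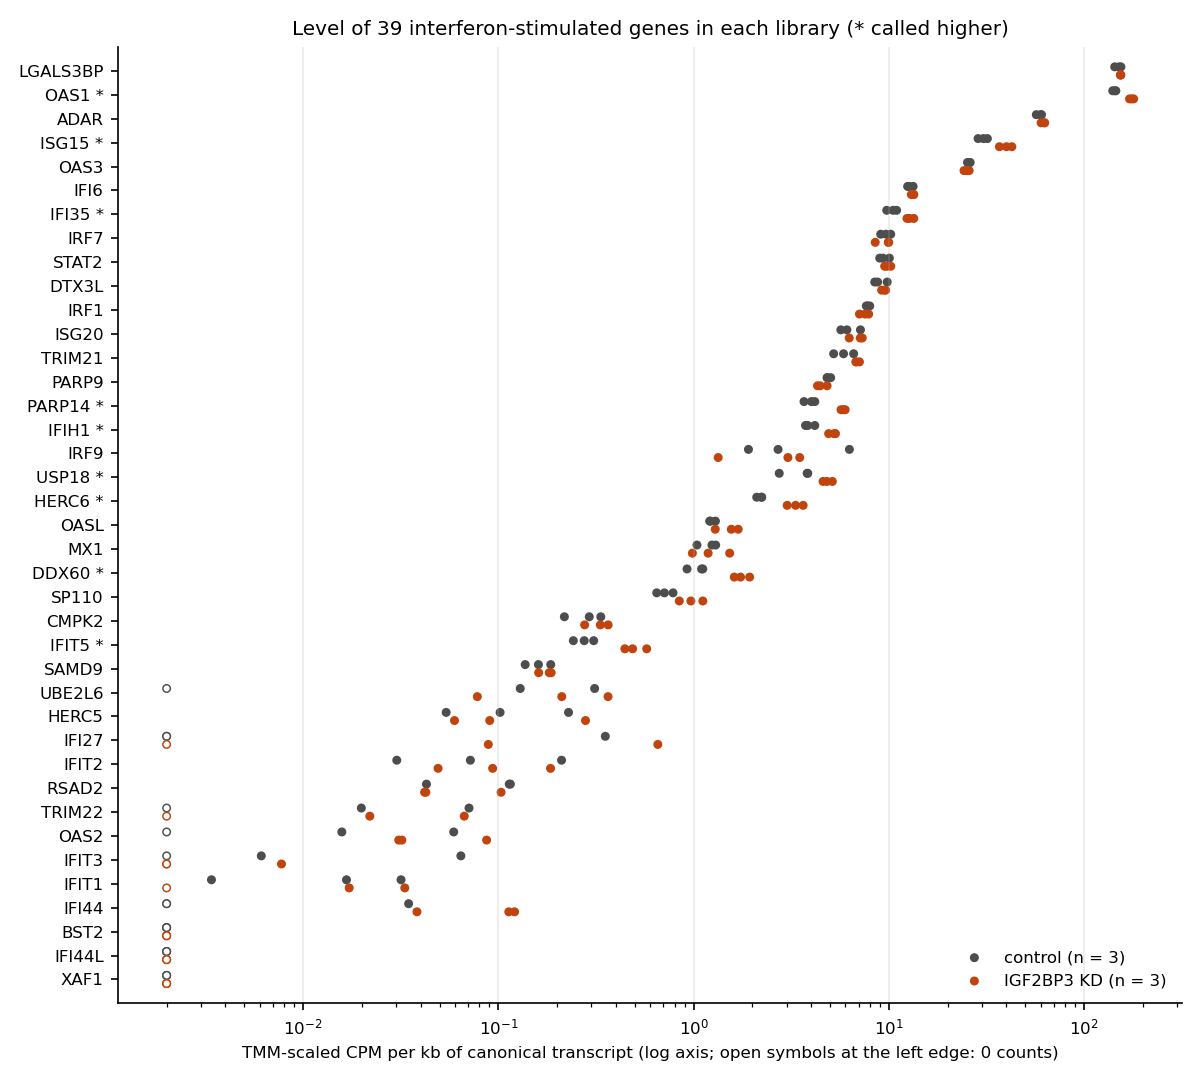
Level of each of the 39 genes in each library, as CPM per kb of the canonical transcript on a log axis, ordered by the control mean, with grey points for 3 control and red points for 3 IGF2BP3 KD libraries and open symbols for 0 counts. *LGALS3BP* and *OAS1* stand at the top, *BST2*, *IFI44L* and *XAF1* had 0 counts in all libraries, and the 9 genes marked with an asterisk were called higher.

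Levels between genes were compared per kb of transcript. In control cells *LGALS3BP*, a secreted glycoprotein, had 150 ± 5.59 CPM per kb (SD, n = 3) and *OAS1* 143 ± 2.75 CPM per kb (SD, n = 3). *ADAR* followed at 59.2, *ISG15* at 30.4, *OAS3* at 25.8 and *IFI6* at 12.8 CPM per kb. At the other end, *BST2* (tetherin, which holds budding virus at the membrane), *IFI44L* and *XAF1* had 0 counts in all 6 libraries. A floor of 3 counts per library would be 0.0431 to 0.0556 CPM. The other 6 genes below the filter, *IFIT1*, *IFIT3*, *OAS2*, *TRIM22*, *IFI27* and *IFI44*, had at most 30 counts in any library. The 39 genes together made up 1408 to 1451 CPM in control libraries and 1541 to 1567 CPM in IGF2BP3 KD libraries. Of the mean difference of 121 CPM, *OAS1* alone accounted for 52.1 CPM.

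**Figure D2:**
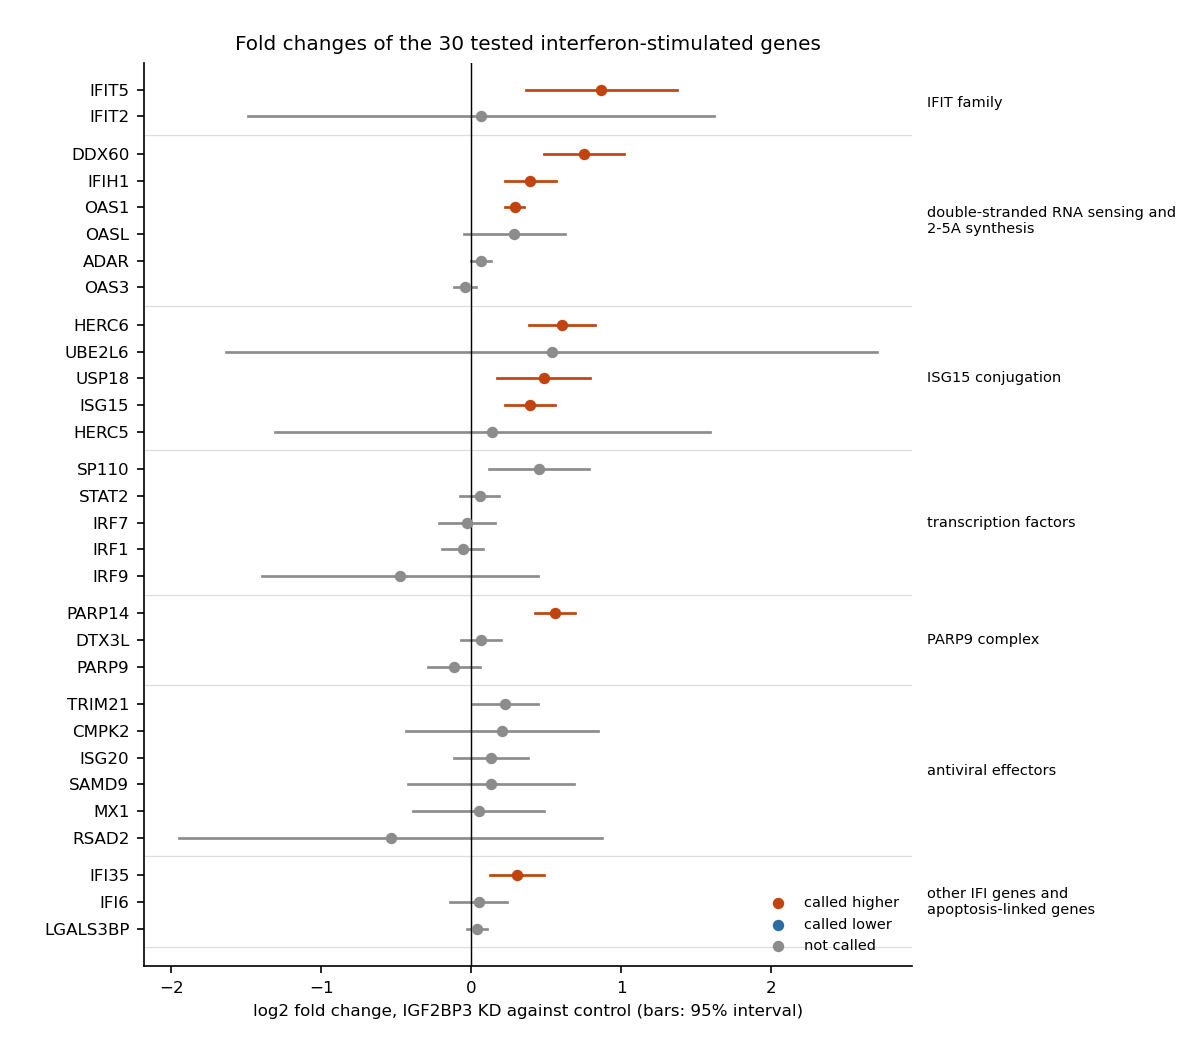
Log2 fold change of IGF2BP3 KD against control cells with its 95% interval for the 30 tested genes, grouped by role, in red where called higher and grey where not called. The 9 called genes lie between 0.29 and 0.87, and none of the 30 was called lower.

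Sensors of viral RNA and the oligoadenylate synthetases held 3 of the 9 genes that rose. Of the 7 genes in this group 6 were tested, 3 were higher and 0 lower, beside 9.87% and 10.6% of all genes tested. *DDX60* (ENSG00000137628, minus strand of chromosome 4, 168216291 to 168318883 on hg38), a helicase linked to RIG-I signaling, had 6.61, 5.57 and 6.71 CPM in control libraries 1, 2 and 3 and 9.73, 10.5 and 11.7 CPM in IGF2BP3 KD libraries 1, 2 and 3. The groups did not overlap, and the log2 fold change was 0.75 (SE 0.12, adjusted p = 0.0011). *IFIH1* (ENSG00000115267, minus strand of chromosome 2, 162267074 to 162318684), which encodes MDA5, a sensor of long double-stranded RNA, had 15, 13.8 and 13.4 CPM in control and 18.8, 17.6 and 19.1 CPM in IGF2BP3 KD libraries. Its lowest IGF2BP3 KD value was above its highest control value, at a log2 fold change of 0.40 (SE 0.08, adjusted p = 0.0035). *ADAR*, the enzyme that edits adenosine to inosine in double-stranded RNA, had 377, 396 and 401 CPM in control and 399, 416 and 413 CPM in IGF2BP3 KD libraries. The groups overlapped, and with a 95% interval of -0.00 to 0.13 on the log2 scale *ADAR* was not called (adjusted p = 0.18).

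The oligoadenylate synthetases, which make a small nucleotide messenger when they bind double-stranded RNA, did not move together. *OAS1* (ENSG00000089127, plus strand of chromosome 12, 112905856 to 112933219) had 235, 238 and 229 CPM in control libraries and 293, 279 and 286 CPM in IGF2BP3 KD libraries. This is the smallest rise among the called members and also the one with the smallest adjusted p, at a log2 fold change of 0.29 (SE 0.03, adjusted p = 4.6e-05). *OAS3*, which starts 4.8 kb after the end of *OAS1* on the same strand, had 167, 172 and 171 CPM in control and 160, 166 and 170 CPM in IGF2BP3 KD libraries. Its groups overlapped, and the log2 fold change was -0.04 with a 95% interval of -0.11 to 0.03. The log2 ratio of *OAS1* to *OAS3* was 0.50, 0.46 and 0.42 in control and 0.87, 0.75 and 0.75 in IGF2BP3 KD libraries. Its mean difference was 0.33 (exact two-sided permutation p = 0.1, the smallest that 3 against 3 libraries allow, and 0.133 after adjustment over the 4 ratios computed). The ratio was chosen after the values of both genes were seen. *OASL*, a relative without the enzymatic activity, had a log2 fold change of 0.29 and overlapping groups (adjusted p = 0.23). *OAS2*, which follows *OAS3*, had 5, 0 and 16 counts in control and 8, 25 and 9 counts in IGF2BP3 KD libraries.

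The IFIT proteins bind viral RNA and block its translation, and their genes lie together on chromosome 10. Only *IFIT5* (ENSG00000152778, plus strand, 89414568 to 89421605) was expressed above 1 CPM. It had 1.24, 0.976 and 1.11 CPM in control and 1.96, 2.32 and 1.79 CPM in IGF2BP3 KD libraries, the largest rise among the called members (log2 fold change 0.87, SE 0.23, adjusted p = 0.019). *IFIT5* was no longer called when control library 2, control library 3 or IGF2BP3 KD library 2 was left out, with an adjusted p of 0.068, 0.058 and 0.081. *IFIT1* had 1, 5 and 8 counts in control and 4, 0 and 9 counts in IGF2BP3 KD libraries, *IFIT3* at most 9 counts in any library, and *IFIT2* between 6 and 49. No direction can be read for these 3 genes at such counts.

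ISG15 is a ubiquitin-like protein that is joined to other proteins by the conjugating enzyme UBE2L6 and the ligase HERC5 and is removed by USP18. The group counted here adds *HERC6* to these genes. Of its 5 genes, all tested, 3 were higher (*ISG15*, *HERC6* and *USP18*) and 0 lower, beside 9.87% and 10.6% of all genes tested. *HERC5* and *UBE2L6* were not called. *ISG15* (ENSG00000187608, plus strand of chromosome 1, 1001138 to 1014540) had 18.3, 19.5 and 20.4 CPM in control and 23.5, 27.2 and 25.5 CPM in IGF2BP3 KD libraries, without overlap (log2 fold change 0.39, SE 0.07, adjusted p = 0.0032). *HERC6* (ENSG00000138642, plus strand of chromosome 4, 88378739 to 88443097), a relative of *HERC5*, had 8.44, 8.41 and 7.96 CPM in control and 11.4, 13.8 and 12.6 CPM in IGF2BP3 KD libraries. The log2 fold change was 0.61 (SE 0.10, adjusted p = 0.0013), and the groups stood apart by more than their spread.

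*USP18* (ENSG00000184979, plus strand of chromosome 22, 18150118 to 18177397), which also restrains the type I receptor, had 7.10, 7.15 and 5.11 CPM in control and 8.56, 9.55 and 8.96 CPM in IGF2BP3 KD libraries. Control library 3 was low, and the log2 fold change of 0.48 (SE 0.14, adjusted p = 0.033) fell to 0.34 without it (adjusted p = 0.097). It was also not called without IGF2BP3 KD library 1, 2 or 3, where adjusted p was 0.065, 0.12 and 0.086. *USP18* has near-identical copies on the same chromosome, so its counts are uncertain. Of the enzymes that load ISG15, the 2 on the list, *HERC5* and *UBE2L6*, were barely expressed. *HERC5* had 13, 56 and 21 counts in control and 53, 13 and 20 in IGF2BP3 KD libraries, and *UBE2L6* had 26, 11 and 0 counts in control and 24, 16 and 6 in IGF2BP3 KD libraries.

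*PARP9*, *DTX3L* and *PARP14* lie in 1 stretch of chromosome 3 and are known interferon targets, and *PARP14* was the one called. *PARP14* (ENSG00000173193, plus strand, 122680839 to 122730840), an ADP-ribosyltransferase, had 32.2, 28.3 and 30.9 CPM in control and 46.0, 43.8 and 45.1 CPM in IGF2BP3 KD libraries, a log2 fold change of 0.56 (SE 0.06, adjusted p = 7.1e-05). The spread within each group was far smaller than the gap between them. *PARP9* had 14.7, 14.8 and 15.3 CPM in control and 14.7, 13.1 and 13.5 CPM in IGF2BP3 KD libraries, so that the highest IGF2BP3 KD value lay just under the lowest control value. Its log2 fold change was -0.11 with a 95% interval of -0.29 to 0.06 (adjusted p = 0.38). *DTX3L*, a ubiquitin ligase that pairs with PARP9, had 56.6, 48.9 and 50.6 CPM in control and 55.6, 54.8 and 53 CPM in IGF2BP3 KD libraries, with overlapping groups and a log2 fold change of 0.07 (adjusted p = 0.52).

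The start sites of *PARP9* and *DTX3L* face away from each other and their exons share 139 bases on opposite strands, while *PARP14* starts 105.6 kb further along. The strand setting of the counting is not given, so the counts from the shared bases are uncertain. The log2 ratio of *PARP14* to *PARP9* was 1.13, 0.94 and 1.0 in control and 1.65, 1.74 and 1.74 in IGF2BP3 KD libraries. That is a difference of 0.68 (exact two-sided permutation p = 0.1, adjusted p = 0.133 over 4 ratios chosen after the values were seen). The log2 ratio of *PARP9* to *DTX3L* differed by -0.19, with overlapping groups (exact permutation p = 0.2).

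**Figure D3:**
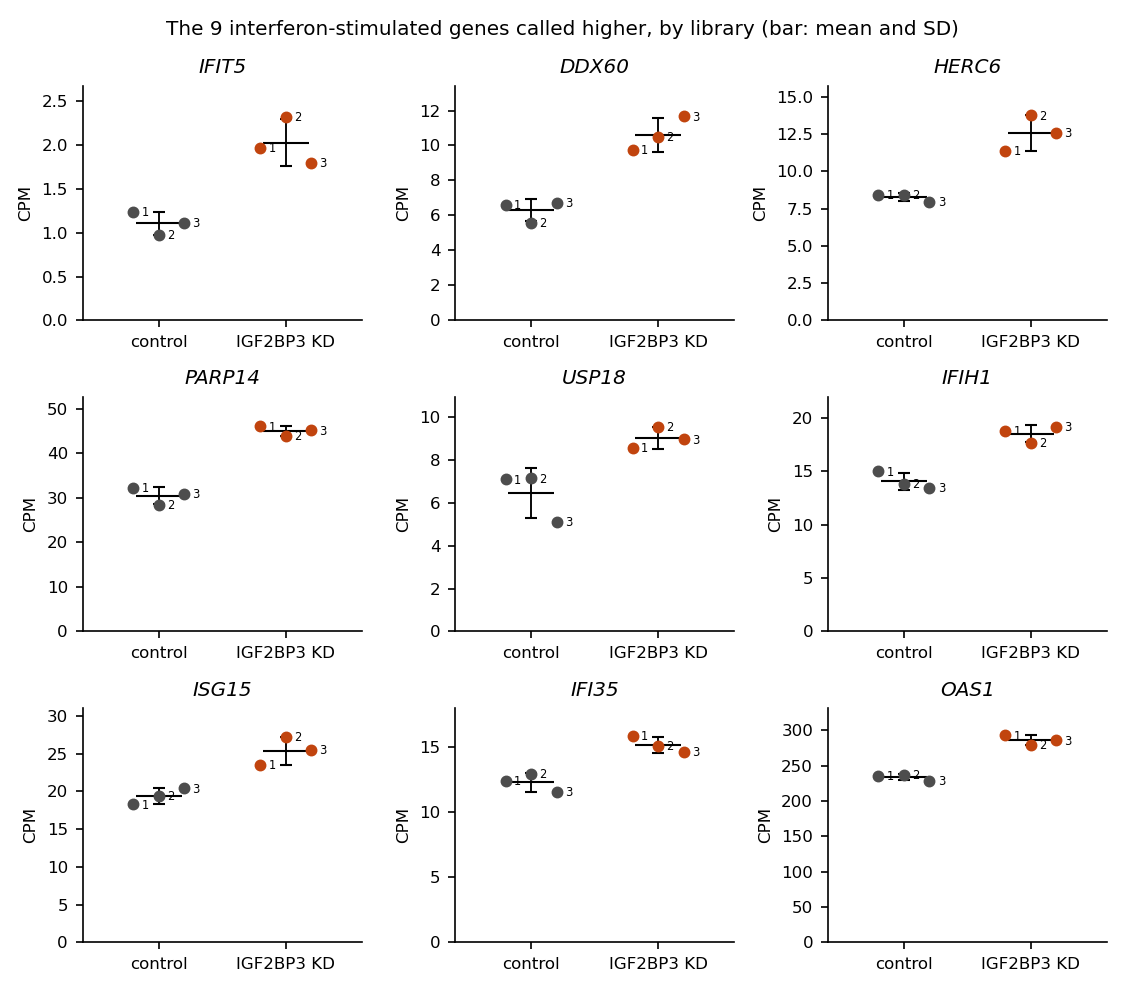
CPM in each library for the 9 genes called higher, with the library number beside each point and bars for the mean and SD of 3 libraries; every axis starts at 0. In all 9 panels the 3 IGF2BP3 KD values lie above the 3 control values.

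None of the 5 members that encode transcription factors or nuclear regulators was called, while 20.4% of all genes tested were called in either direction. *STAT2* had 39.6, 44.4 and 41.1 CPM in control and 42.0, 43.2 and 45.1 CPM in IGF2BP3 KD libraries, a log2 fold change of 0.06 with a 95% interval of -0.07 to 0.19. *IRF1*, the first IRF described, had 27.3, 28.4 and 27.7 CPM in control and 25.2, 26.9 and 28.0 CPM in IGF2BP3 KD libraries, at -0.06 (95% interval -0.19 to 0.08). *IRF7*, which amplifies interferon production, had 17.5, 19.7 and 18.6 CPM in control and 19.1, 16.4 and 19.2 CPM in IGF2BP3 KD libraries, at -0.03 (95% interval -0.21 to 0.16). In each of these genes the groups overlapped. *SP110*, a nuclear body protein, had 4.86, 4.39 and 4.01 CPM in control and 6.0, 6.91 and 5.24 CPM in IGF2BP3 KD libraries. Its groups did not overlap, but its log2 fold change of 0.45 (SE 0.15) missed the threshold in edgeR (adjusted p = 0.059) and passed it in DESeq2 (adjusted p = 0.048). *SP110* shares exonic bases with *SP140* on the opposite strand.

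*IRF9*, the DNA-binding part of the complex on the ISRE, could not be measured on its own. Its counts were 700, 307 and 182 in control and 307, 135 and 312 in IGF2BP3 KD libraries. Another gene on the same strand, ENSG00000259529, which shares 1544 exonic bases with *IRF9*, had 199, 871 and 889 counts in control and 539, 1182 and 882 in IGF2BP3 KD libraries, high where *IRF9* was low. Their sum was 899, 1178 and 1071 counts in control and 846, 1317 and 1194 in IGF2BP3 KD libraries, 16.1 ± 2.67 and 18.6 ± 2.78 CPM (SD, n = 3). The log2 fold change was -0.47 for *IRF9* alone (95% interval -1.40 to 0.45) and 0.21 for the sum (95% interval -0.08 to 0.50, adjusted p = 0.33 from the same test with the summed counts). The sum was computed after the values were seen, and the overlap is that of GENCODE v44.

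The same split was seen in *RIGI*, the sensor of short double-stranded RNA, which is listed under its older symbol *DDX58* and is not among the 39 genes. It had 306, 168 and 5 counts in control and 256, 19 and 338 in IGF2BP3 KD libraries. With ENSG00000288684, which shares 4471 exonic bases with it on the same strand, the sum was 427, 451 and 418 counts in control and 359, 473 and 396 in IGF2BP3 KD libraries. The log2 fold change of the sum was 0.05 (95% interval -0.23 to 0.33), and that of *RIGI* alone 0.57 (95% interval -1.53 to 2.67).

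**Figure D4:**
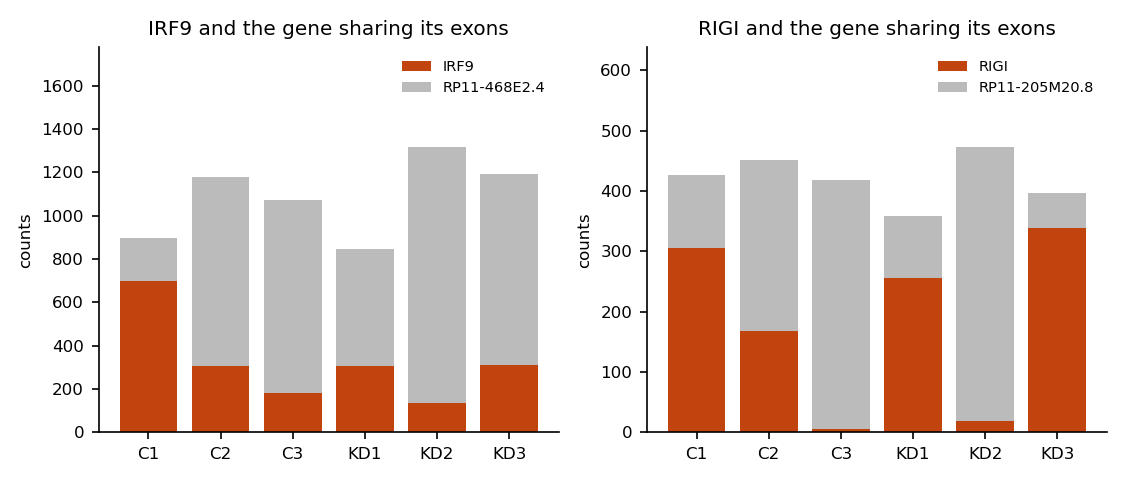
Counts of *IRF9* (left) and *RIGI* (right) in red, stacked with the counts of the gene that shares their exons on the same strand in grey, for control (C1 to C3) and IGF2BP3 KD (KD1 to KD3) libraries. The red part varies from 135 to 700 counts and from 5 to 338 counts, while the full bars of *RIGI* stay between 359 and 473.

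The antiviral effectors showed no call. Of the 8 genes 6 were tested, and 0 were higher or lower in edgeR or DESeq2. In edgeR, 20.4% of all genes tested were called in either direction. At an unadjusted p under 0.05 there was 1 effector, *TRIM21*, beside 3061 higher and 3024 lower of 19778 genes tested. *TRIM21*, an antibody receptor and ubiquitin ligase, had a log2 fold change of 0.23 with groups that did not overlap (adjusted p = 0.14). *MX1*, a GTPase that blocks influenza virus and a common marker of interferon exposure, had 2.89, 3.60 and 3.45 CPM in control and 3.3, 2.74 and 4.25 CPM in IGF2BP3 KD libraries, at 0.05 (95% interval -0.39 to 0.49). *RSAD2* (viperin) had 10, 27 and 23 counts in control and 19, 9 and 9 in IGF2BP3 KD libraries, and its partner gene *CMPK2* between 47 and 71 counts. *ISG20*, an exonuclease, had a log2 fold change of 0.13 (95% interval -0.12 to 0.38), and *SAMD9* the same value with a wider interval (-0.42 to 0.68).

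Among the remaining members *IFI35* rose. *IFI35* (ENSG00000068079, plus strand of chromosome 17, 43006740 to 43014456) had 12.4, 13 and 11.5 CPM in control and 15.9, 15.1 and 14.7 CPM in IGF2BP3 KD libraries, a log2 fold change of 0.30 (SE 0.08, adjusted p = 0.022). It was not called when control library 3, IGF2BP3 KD library 1 or IGF2BP3 KD library 2 was left out, with an adjusted p of 0.094, 0.084 and 0.067. *LGALS3BP* had 316, 340 and 333 CPM in control and 338, 339 and 340 CPM in IGF2BP3 KD libraries, at 0.04 (95% interval -0.03 to 0.11). *IFI6* was at 10.4 ± 0.352 and 10.8 ± 0.171 CPM (SD, n = 3). *IFI44* had 4, 0 and 0 counts in control and 11, 4 and 12 in IGF2BP3 KD libraries, *IFI27* was seen in 3 libraries with at most 30 counts, and both were below the filter.

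Across roles, the 9 genes that rose differ in level. *OAS1* lay at 234 CPM in control cells, *PARP14*, *ISG15*, *IFIH1* and *IFI35* between 12.3 and 30.5 CPM, *HERC6*, *USP18* and *DDX60* between 6.30 and 8.27 CPM, and *IFIT5* at 1.11 CPM. The precision followed the level, from an SE of 0.03 (log2) for *OAS1* to 0.23 for *IFIT5*. For members with wide intervals, such as *HERC5* (-1.31 to 1.59) and *UBE2L6* (-1.63 to 2.71), a change of the size seen in the called members was not detectable at this depth.

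Members were also searched for GATTACT and ACACATC, words of 7 bases in 3′ UTRs that an earlier analysis of these same libraries had picked for going with lower and higher expression. In these libraries 28.1% of the tested genes with ACACATC in the 3′ UTR of the canonical transcript were higher, against 11.5% of those without it. The word was picked for this difference, so the difference is no separate support for it. GATTACT was in the 3′ UTR of 0 of the 39 members, against 7.7% of the 13932 tested genes with a 3′ UTR. ACACATC was in 3 of the 39 members, against 9.53% of those tested genes. The sites are shown with the word in capitals on the strand of the gene, hg38.
PARP14, chr3:122729780-122729800, plus strand: gcctgctACACATCttcattg
OAS3, chr12:112970849-112970869, plus strand: ctagtttACACATCttgatgc
SAMD9, chr7:93100306-93100326, minus strand: ggagtgcACACATCacccgtg
*PARP14* was higher, and *OAS3* and *SAMD9* were not called. The other 8 called members hold neither word. Their 3′ UTRs were 62 (*ISG15*) to 2349 (*IFIT5*) bases long, and those of the 3 members with ACACATC 1810 to 3278 bases. The search took no account of length. Among genes of the pathway outside the 39, ACACATC was in *IFNGR2* and *ZC3HAV1*, both higher, in *MAVS*, *PIAS1* and *EPSTI1*, which were not called, and in *CXCL11*, which was not tested. GATTACT was in *PLSCR1*, which was lower, and in *TNFSF10* and *NMI*, which were not called.

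The interferons themselves were not detectable at this depth, apart from *IFNE*, an interferon of epithelia. *IFNE* had 43, 42 and 39 counts in control and 61, 42 and 35 in IGF2BP3 KD libraries (log2 fold change 0.31, 95% interval -0.47 to 1.10). The other 20 ligand genes, among them *IFNB1*, *IFNG* and the *IFNA* genes, had at most 5 counts in any library. They summed to 5 counts over the control libraries, to 17 counts in IGF2BP3 KD library 1 and to 0 in IGF2BP3 KD libraries 2 and 3. In IGF2BP3 KD library 1, 12 of these genes had exactly 1 count each. The *IFNA* genes are close copies of each other, so their counts are uncertain. *IFNB1* and *IFNW1* were also among the 12.

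Of the 6 receptor subunits, all tested, 2 were higher and 1 was lower in IGF2BP3 KD cells, while 20.4% of all genes tested were called in either direction. *IFNAR1* (ENSG00000142166) had 60.7, 57.8 and 59.8 CPM in control and 77.1, 76.5 and 77.7 CPM in IGF2BP3 KD libraries, a log2 fold change of 0.38 (SE 0.04, adjusted p = 9.1e-05). *IFNAR2* (ENSG00000159110), its partner in the type I receptor, had 28.1, 28.7 and 30.4 CPM in control and 21.1, 25.9 and 23.8 CPM in IGF2BP3 KD libraries, at -0.30 (SE 0.08, adjusted p = 0.019). Neither gene's groups overlapped. *IFNAR2* was not called when control library 3, IGF2BP3 KD library 1 or IGF2BP3 KD library 3 was left out, with an adjusted p of 0.078, 0.068 and 0.057. *IFNAR2* shares 2038 exonic bases on its strand with the readthrough gene *IFNAR2-IL10RB*, so its counts are uncertain to that extent.

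For the receptor of interferon gamma, *IFNGR2* (ENSG00000159128) rose from 30.9, 33.3 and 31.8 CPM to 44.6, 46.9 and 44.2 CPM (log2 fold change 0.50, SE 0.06, adjusted p = 8.1e-05). *IFNGR1* had 135, 137 and 141 CPM in control and 134, 132 and 137 CPM in IGF2BP3 KD libraries, at -0.04 (95% interval -0.11 to 0.04). *IL10RB*, a subunit of the receptor for type III interferons, had 54.0, 49.5 and 55.9 CPM in control and 52.4, 59.1 and 57.4 CPM in IGF2BP3 KD libraries, with overlapping groups. *IL10RB* shares 1732 exonic bases on its strand with the readthrough gene *IFNAR2-IL10RB*, so its counts are uncertain to that extent. Its partner *IFNLR1* was close to silent, at 6 to 28 counts a library.

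Among the genes that carry the signal on from the receptors, *JAK1*, *JAK2* and *TYK2* were not called, with log2 fold changes of -0.06, -0.05 and -0.12. *PTPN2*, a phosphatase that switches off JAK1, fell most among the inhibitors. Its values were 115, 105 and 110 CPM in control and 78, 78.2 and 74.8 CPM in IGF2BP3 KD libraries (log2 fold change -0.52, SE 0.04, adjusted p = 1.2e-05).

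**Figure D5:**
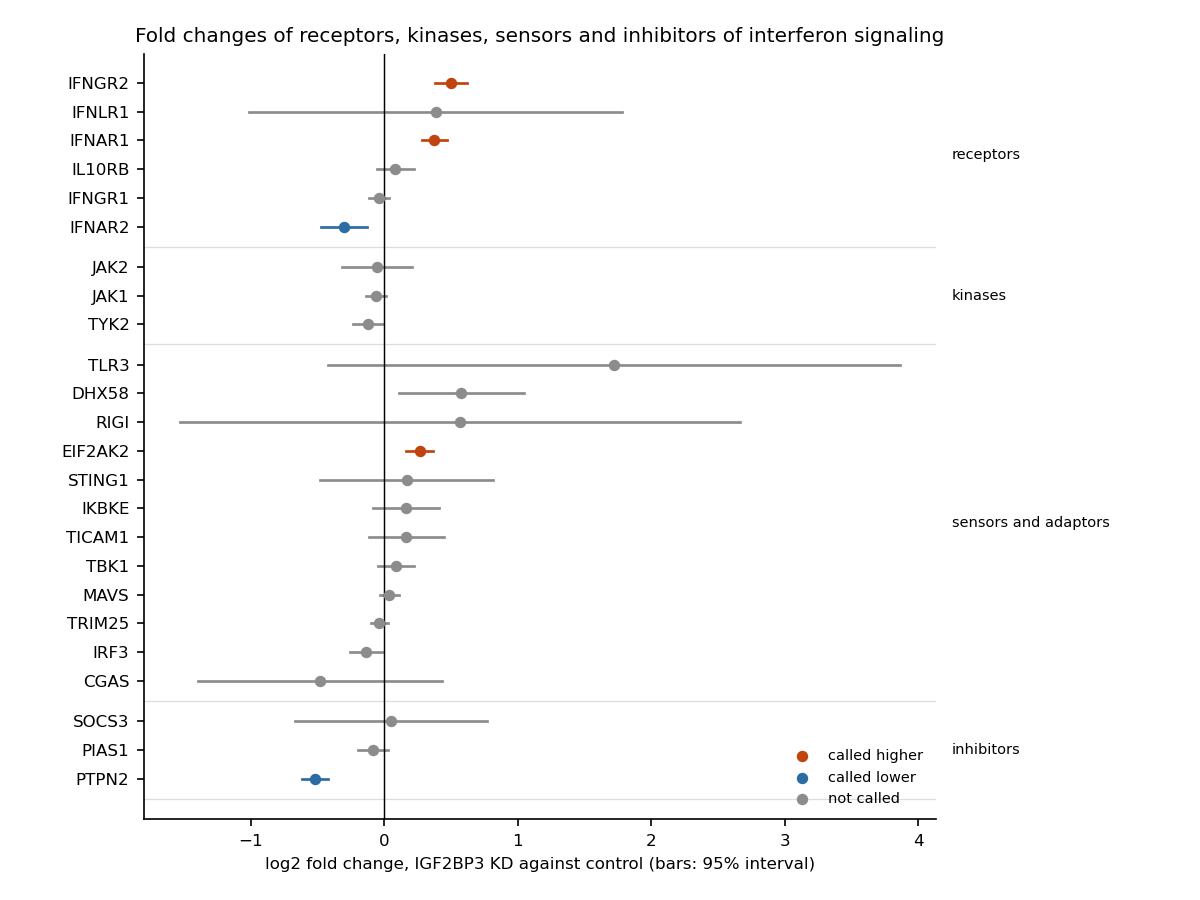
Log2 fold change with its 95% interval for tested receptors, kinases, sensors with adaptors, and inhibitors of interferon signaling that are not among the 39 genes, in red where called higher, blue where called lower and grey where not called. *IFNAR1*, *IFNGR2* and *EIF2AK2* lie to the right of 0 and *IFNAR2* and *PTPN2* to the left.

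Over the whole list of 86 other interferon pathway genes, 57 were tested, 9 were higher (15.8%) and 8 were lower (14.0%), beside 9.87% and 10.6% of all genes tested. The median log2 fold change was 0.05. Among 13 tested sensors and adaptors, *EIF2AK2*, the kinase PKR that stops translation on double-stranded RNA, was higher at 0.27 (SE 0.05, adjusted p = 0.0016). *MAVS*, the adaptor of MDA5 and RIG-I, was not called at 0.04 (95% interval -0.03 to 0.11).

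Of 30 tested further interferon-stimulated genes outside the 39, 6 were higher (20%) and 4 lower (13.3%), beside the same 9.87% and 10.6%. *ZC3HAV1*, which encodes the antiviral protein ZAP, had 38.4, 39.5 and 37.7 CPM in control and 54.2, 59.5 and 54.2 CPM in IGF2BP3 KD libraries (log2 fold change 0.54, SE 0.06, adjusted p = 4.9e-05). *SAMD9L*, the relative of *SAMD9*, had 4, 8 and 8 counts in control and 17, 36 and 24 in IGF2BP3 KD libraries, at 2.03 (SE 0.60, adjusted p = 0.035). The call of *SAMD9L* was lost whichever of the 6 libraries was left out (adjusted p from 0.061 to 0.19). *TRIM5*, *TRIM14*, *HELZ2* and *SHISA5* rose by 0.13 to 0.27 on the log2 scale. When any of control libraries 2 and 3 and IGF2BP3 KD libraries 1 and 2 was left out *TRIM5* was not called (adjusted p 0.051 to 0.072), and *TRIM14* was not called without control library 2 or 3 or IGF2BP3 KD library 1 or 3 (0.051 to 0.063). *SHISA5* was called only in the fit without control library 3 (0.068 to 0.12 in the other 5). *PLSCR1*, *LAP3*, *PNPT1* and *SLFN5* were lower, with log2 fold changes from -0.34 to -0.17. *LAP3* was not called without control library 1 or 2 or IGF2BP3 KD library 1 or 2 (adjusted p 0.060 to 0.086). *CXCL10*, a chemokine strongly induced by interferon in many cells, had 0 counts in all libraries.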

How the data were processed

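Poly(A) RNA from OE-19 cells was prepared with a directional kit and sequenced with paired reads of 150 bases. Per the labels and the paper, the authors used HISAT2 for alignment (hg38) and featureCounts for gene counts, and deposited raw counts. Versions, annotation release and strand setting are not given in the sources used here.

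Of the table, 132 repeated entries of 44 identifiers were left out. The main test was edgeR's quasi-likelihood test (version 4.0.16, R 4.3.3; TMM factors, filterByExpr at a count of 10 and a total of 15, glmQLFit, glmQLFTest, Benjamini-Hochberg adjustment over 19778 genes, threshold 0.05). The fit was tested on simulated data. Standard errors and 95% intervals come from the same fit. Within a group, chi-square per degree of freedom over genes was 9.86 to 17.6, so no library repeats another. GENCODE v44 (hg38) gave lengths, positions and overlaps. DESeq2 1.42.0, RLE scaling, other filters, a replicate block, a fold threshold and leaving out each library were the alternatives, and summed counts of overlapping genes were added after the data were seen. Same-numbered libraries did not deviate together.

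The 39 members and all gene lists were chosen with earlier results of these data known. Named with values in every library were the called members, the transcription factors, and the 8 uncalled members with the highest CPM. Of the pathway list these were the receptors and called genes that changed by 0.5 or more (log2). Others given by library were named after their values were seen. Results of some genes on the pathway list are not reported here, though its counts include them.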

Additional observations from a re-analysis of the deposited data

How the results depend on the processing

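The 9 rises among the 39 interferon-stimulated genes, the 0 falls and the counts over the pathway list and over all genes stayed within 1.5 times under RLE scaling, DESeq2, no filter on low counts (6 members higher), at least 10 counts in every library (10 higher) and the replicate block (9 higher, 1875 of all genes higher and 2026 lower). Leaving out 1 library at a time gave 6 to 9 members higher and 0 lower, beside 1414 to 1741 of all genes higher and 1641 to 1970 lower. It gave 6 to 8 pathway genes higher and 6 to 7 lower. When a change of 0.5 or more (log2) was also required, 4 members (*IFIT5*, *DDX60*, *HERC6* and *PARP14*) and 2 pathway genes were higher, 1 pathway gene was lower, and of all genes 465 were higher and 416 lower.

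The members' median log2 fold change, 0.14, was 0.18 with the replicate block and 0.10 to 0.27 with 1 library left out, where the set of members tested also changed. It was highest without control library 1 and was 0.23 without control library 2. Calls of *IFIT5*, *IFI35* and *USP18* were also lost without a filter on low counts, as were those of *SAMD9L* and *SHISA5* in the pathway list. *SP110* was called by DESeq2 and with at least 10 counts in every library (adjusted p = 0.0497). *IRF7* ranged from -0.073 to 0.043 with 1 library left out, *IRF9* from -0.78 to 0.18 and *IFNLR1* from -0.011 to 0.77. *IRF9* was 0.21 when summed with the gene that shares its exons. None of these values was called. Correlations of same-numbered libraries' deviations from their group means were -0.05 to -0.02, so the labels' numbers did not pair the libraries, and the block changed no call among the named members. Of the called pathway genes it ended that of *SAMD9L* (adjusted p = 0.067). DESeq2 gave *SAMD9L* no adjusted p. *IGF2BP3* stayed between -3.1 and -3.0 with 1 library left out. Depth limits the members below 1 CPM, whose intervals span more than the rises of the called genes.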
